A study of Rattus norvegicus with 6 samples.

Results

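The cluster of miR-143 and miR-145 encodes microRNAs (miRNAs) that are abundant in contractile smooth muscle, and 3 of its mature products are described here in small extracellular vesicles of rat plasma: rno-miR-143-3p, rno-miR-145-5p and rno-miR-145-3p, written below without the species prefix. They were taken by name from the deposited table of 764 mature rat miRNAs, and each of the 3 passed the filter on low counts that left 362 miRNAs for testing. The remaining arm of the cluster, miR-143-5p, is given beside them for comparison.

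Small extracellular vesicles are membrane-bound particles shed by cells, and each preparation used 2 ml of plasma from wild-type male Sprague-Dawley rats, obtained at an age of 6 to 8 weeks. The 3 control libraries came from control rats, for which the labels name no injection. The 3 diabetic libraries came from rats at 8 weeks of diabetes, which had received 65 mg/kg intraperitoneal streptozotocin, which kills pancreatic beta cells, and had passed a fasting glucose of 11.1 mmol/L. RNA of 18 to 30 nucleotides was sequenced, and total miRNA counts ran from 6254077 to 8930730 per library. The labels do not say whether a library came from 1 animal or from pooled plasma, so p-values measure only the spread between these libraries.

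Both hairpins are cut from 1 primary transcript, which the transcription factor SRF and its partner myocardin switch on in smooth muscle. Each hairpin yields a duplex of a 5p and a 3p arm, of which usually one, the guide, stays in an Argonaute protein and represses messenger RNAs while the passenger is degraded. miR-145-5p and miR-143-3p are the guides of the cluster. In vessel walls miR-145-5p represses Klf4 and Klf5, factors of the proliferative smooth muscle state, and both guides favour the contractile state. Pericytes and fibroblasts also express them, so that the label names the best-known source and not a source measured in plasma.

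The mature sequences of all 4 arms come from RefSeq on the GRCr8 build, and they are shown because the results turn on which arm of a hairpin was counted. The seed, bases 2 to 8, is in capitals.
miR-143-3p: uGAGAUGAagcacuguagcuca
miR-143-5p: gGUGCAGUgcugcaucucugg
miR-145-5p: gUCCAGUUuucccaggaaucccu
miR-145-3p: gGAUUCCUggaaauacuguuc
The 4 seeds differ from each other, and no other of the 693 mature names in the RefSeq table carries any of them. The nearest other mature sequence was 6 changes away from miR-145-3p, 9 from miR-145-5p, 8 from miR-143-3p and 7 from miR-143-5p, counting substitutions, insertions and deletions. The RefSeq table covers 689 of the 764 listed miRNAs by name, and the remainder were not compared.

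The hairpins lie on the minus strand of chromosome 18, Mir143 at chr18:57371349-57371453 and Mir145 at chr18:57369983-57370070 (GRCr8), with 1278 bases between them. The long noncoding RNA gene Carmn spans both. They are printed with both mature arms in capitals, to show the arms that each duplex is made of.
Mir143: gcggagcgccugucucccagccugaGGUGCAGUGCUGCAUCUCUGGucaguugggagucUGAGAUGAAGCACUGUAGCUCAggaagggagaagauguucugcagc
Mir145: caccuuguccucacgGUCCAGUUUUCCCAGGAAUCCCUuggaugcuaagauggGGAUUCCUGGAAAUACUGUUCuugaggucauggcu
In the sequence as transcribed, the 5p arm comes first, followed by a loop of 13 bases in Mir143 and of 15 bases in Mir145 and then by the 3p arm. The arms are 21 to 23 bases long, so that counts of the arms are on the same footing for length.

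Both guides stood higher in diabetic vesicles, while the passenger miR-145-3p lay lower than in controls; none of these differences passed the threshold used here. Levels are given as normalized CPM, counts per 1e+06 library counts after scaling of the libraries by the trimmed mean of M values (TMM). They are relative levels within the miRNA pool, in which more vesicles from a cell type and more of a miRNA per vesicle cannot be told apart. The fold changes come from edgeR's quasi-likelihood (QL) test, fitted over all 362 miRNAs, and an adjusted p is Benjamini-Hochberg adjusted over these, with a threshold of 0.05.

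miR-143-3p was one of the most abundant vesicle miRNAs. Ordered by count among the listed miRNAs, it took rank 8, 11 and 10 in the controls and rank 3, 2 and 5 in the diabetic libraries. Control replicates 1, 2 and 3 held 26092, 16282 and 21702 normalized CPM, and the diabetic replicates held 47600, 53707 and 33365 normalized CPM. No control library reached the level of any diabetic one, with diabetic replicate 3 the lowest of its group. The log2 fold change was 1.07 (SE 0.36, 95% interval 0.27 to 1.88, n = 3 per group), which is 2.10-fold, and the edgeR QL test gave an adjusted p of 0.121.

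miR-145-5p, the guide of the neighbouring hairpin, was far less abundant and had the larger fold change. The controls, replicates 1, 2 and 3, had 253, 117 and 151 normalized CPM, and their diabetic counterparts had 863, 454 and 346 normalized CPM. The groups did not overlap, and the replicate numbered 1 was the highest in each. Its log2 fold change was 1.68 (SE 0.45, 95% interval 0.68 to 2.67, n = 3 per group), or 3.19-fold, and the edgeR QL test gave an adjusted p of 0.0853. Without diabetic replicate 1 the log2 fold change was 1.21, with an adjusted p of 0.275.

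miR-145-3p, the passenger from the same hairpin, had a mean of 144 normalized CPM in control libraries, against 174 for its guide. Controls 1, 2 and 3 stood at 136, 127 and 170 normalized CPM, and diabetic libraries 1, 2 and 3 at 69.7, 121 and 74.4 normalized CPM. All 3 diabetic libraries lay below the controls on this scale, diabetic replicate 2 only narrowly. Its log2 fold change was -0.71 (SE 0.36, 95% interval -1.51 to 0.09, n = 3 per group), and the edgeR QL test gave an adjusted p of 0.247. Before TMM scaling the groups overlapped: controls held 109, 124 and 119 CPM, and the diabetic libraries 88.8, 153 and 83.4 CPM.

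miR-143-5p, the passenger of the other hairpin, stood higher in diabetic libraries, as its guide did. It was rare: controls 1, 2 and 3 gave 91, 63 and 44 counts, and the diabetic libraries gave 215, 196 and 155. Mean levels were 10.9 ± 1.63 normalized CPM in the controls against 19.8 ± 3.08 in the diabetic group (SD, n = 3 each). The groups did not overlap. Its log2 fold change was 0.86 (SE 0.36) and the adjusted p of the edgeR QL test was 0.185.

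**Figure D1:**
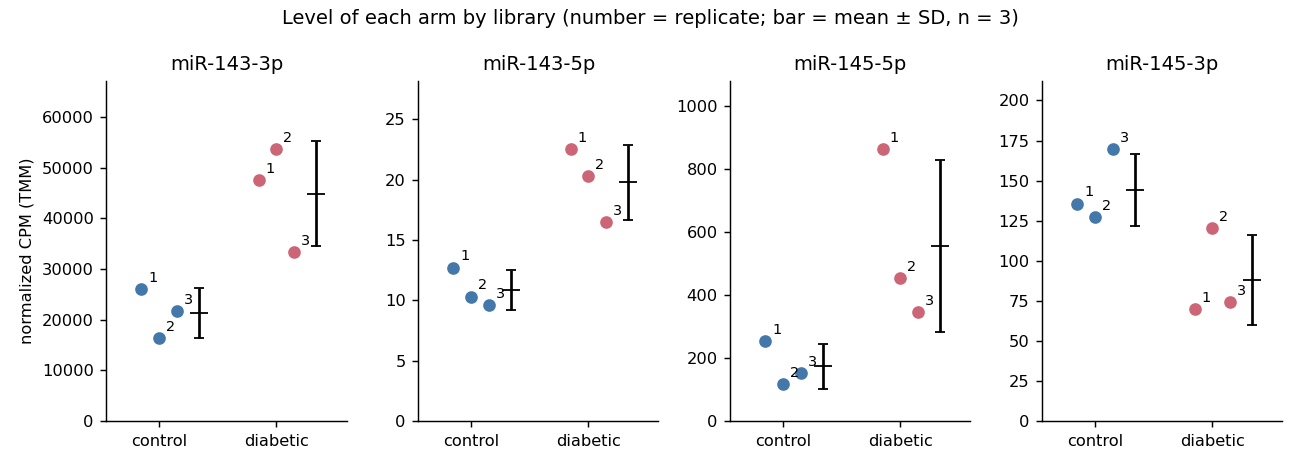
Normalized CPM (TMM) of the 4 arms of the cluster in each library, with replicate numbers beside the points and the mean ± SD (n = 3) beside each group; each panel has its own axis from 0. The diabetic libraries lie above all controls for miR-143-3p, miR-143-5p and miR-145-5p, and below all controls for miR-145-3p.

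None of the 3 members passed the threshold, in a table where 6 of 362 miRNAs did (1.66%; 0.552% higher). The unadjusted p of 2 of the 3, miR-143-3p and miR-145-5p, was under 0.05, where 22.7% of all tested miRNAs had such a p. DESeq2 called both guides (11.6% of all tested miRNAs were called), edgeR's exact test called miR-145-5p (8.29%), and limma-voom called neither (1.1%). Without control replicate 1, which had the highest control level of both guides, the edgeR QL test called miR-143-3p (log2 fold change 1.22, adjusted p = 0.0446) and miR-145-5p (2.03, adjusted p = 0.0205), where 13% of 377 tested miRNAs were called. Without diabetic replicate 3 it called miR-145-5p alone of the members (1.97, adjusted p = 0.0335), where 5.8% of 379 were called. Full separation of the groups was common: 27.9% of tested miRNAs showed it in either direction and 13.3% with the diabetic libraries higher. In CPM before TMM scaling these shares were 36.2% and 32.6%.

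The choice of scaling set the size of these fold changes. When counts were divided by library size alone, all tested miRNAs together had a median log2 fold change of 0.61, against 0.02 with TMM. On that scale miR-143-3p stood at 1.67 (adjusted p = 0.0317), miR-145-5p at 2.29 (adjusted p = 0.027) and miR-143-5p at 1.43 (adjusted p = 0.0423), and these 3 arms passed the threshold, where 12.4% of all tested miRNAs were called higher. miR-145-3p stood at -0.11 there, where the edgeR QL test gave an adjusted p of 0.837. A change of scaling shifts all log2 fold changes by nearly the same amount, so distances to their median could differ little. miR-145-5p lay 1.66 above the median of all miRNAs with TMM and 1.68 above it with library size only. miR-145-3p lay at -0.73 and -0.72 relative to it. The authors' deposited table gives log2 fold changes of unscaled mean CPM of 1.67, 1.43, 2.29 and -0.11 for miR-143-3p, miR-143-5p, miR-145-5p and miR-145-3p. Its false discovery rates, in that order, are 0.0092, 0.0354, 0.00152 and 0.978. They come from the authors' own test and not from the fit used here.

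**Figure D2:**
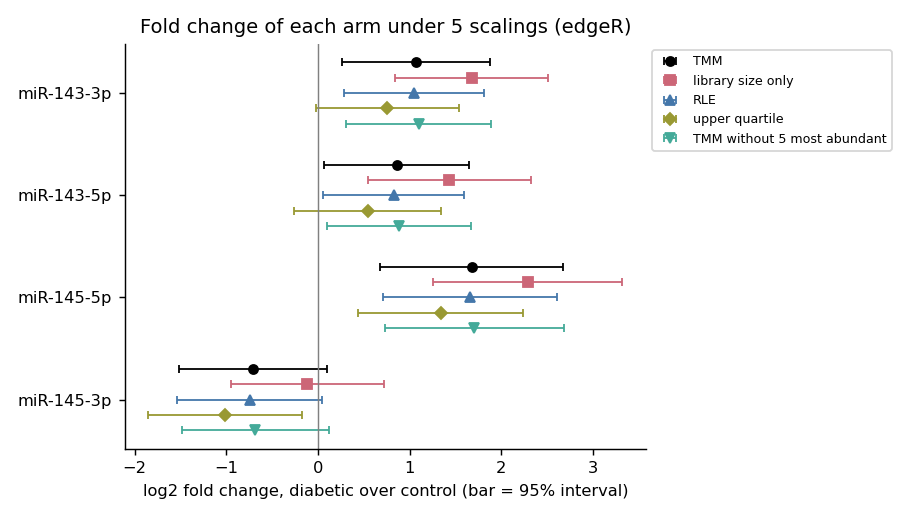
Log2 fold change of each arm, diabetic over control, with its 95% interval from the edgeR QL fit under 5 scalings of the libraries (n = 3 per group). miR-145-5p runs from 1.34 with upper quartile factors to 2.29 with library size only, and miR-145-3p lies below 0 under all 5, from -1.01 to -0.11.

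The arms of miR-145 were next compared within each library, where scaling cancels out. Controls 1, 2 and 3 gave 1813, 714 and 692 counts of miR-145-5p against 972, 778 and 779 of miR-145-3p. The passenger thus had the higher count in control replicates 2 and 3. Diabetic libraries 1, 2 and 3 gave 8231, 4386 and 3261 counts of the 5p arm against 665, 1164 and 701 of the 3p arm, and the guide led in each.

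As a share of both arms, the guide took 65.1%, 47.9% and 47.0% in controls 1, 2 and 3, with 95% exact binomial intervals of 63.3 to 66.9%, 45.3 to 50.4% and 44.5 to 49.6%. It took 92.5%, 79.0% and 82.3% in diabetic libraries 1, 2 and 3, with intervals of 92.0 to 93.1%, 77.9 to 80.1% and 81.1 to 83.5%. These intervals cover counting error within a library and not the spread between libraries. No interval of a control reached that of a diabetic library, but intervals also lay apart within groups. The interval of control 1 lay apart from those of controls 2 and 3, which overlapped, and the diabetic intervals lay apart from each other. The controls had 5p to 3p ratios of 1.87, 0.918 and 0.888 and the diabetic libraries 12.4, 3.77 and 4.65, so that the lowest diabetic ratio was above the highest control ratio. On the log2 scale the mean ratio was 0.20 ± 0.60 among controls against 2.59 ± 0.92 among diabetic libraries (SD over n = 3), a difference of 2.39 or 5.23-fold. A two-sided exact permutation test over libraries gave p = 0.1, the smallest that 3 against 3 can give.

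The arm ratio of miR-143 was less variable, and its groups were not separated. miR-143-3p exceeded miR-143-5p 2054, 1580 and 2264 times in the controls, and 2113, 2646 and 2029 times in the diabetic libraries. Diabetic libraries 1 and 3 lay inside the control range. The mean log2 ratio was 10.9 ± 0.27 and 11.1 ± 0.21 (SD over n = 3), a difference of 0.21 with p = 0.5 in the two-sided exact permutation test.

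Between the guides, miR-143-3p outnumbered miR-145-5p 103, 139 and 144 times in the controls, and 55.2, 118 and 96.4 times in the diabetic libraries. Diabetic replicate 1 had the lowest ratio, and diabetic replicate 2 lay inside the control range. The log2 ratio changed by -0.57, from 6.99 ± 0.27 to 6.42 ± 0.57 (SD over n = 3), with p = 0.2 in the two-sided exact permutation test. Without diabetic replicate 1 the change was -0.26. The larger fold change of miR-145-5p than of its cluster partner was therefore not separable from the spread between libraries.

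**Figure D3:**
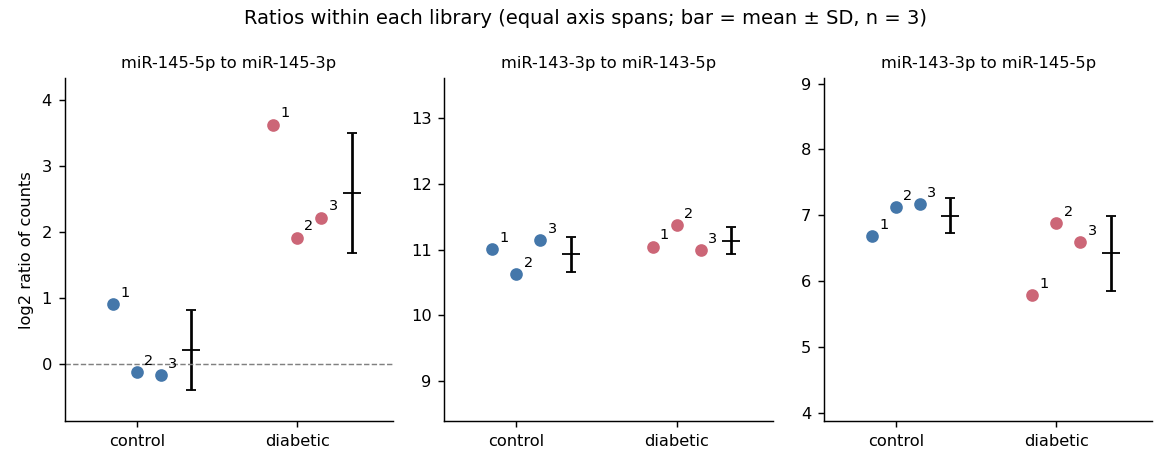
Log2 ratio of counts within each library for the arms of miR-145, the arms of miR-143 and the guides of the cluster; axes span the same range, numbers are replicates and bars are mean ± SD (n = 3). In the miR-145 panel the dashed line marks equal counts of both arms, and the diabetic libraries, at 1.91 to 3.63, lie above the controls, at -0.17 to 0.90.

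The arm ratio of miR-145 was set beside those of the other hairpins, by a limma fit chosen after its values were seen. Among the listed miRNAs 101 hairpins had both arms tested, some of them sharing an arm with a near copy, and their median absolute change in log2 ratio was 0.75. Mir145 had the change ranked 4 by size and 5 by p, at 2.38 (SE 0.56, adjusted p = 0.061 over the 101 hairpins). Mir143 ranked 82 by size, at -0.22 for 5p over 3p (SE 0.36, adjusted p = 0.734). No hairpin passed the threshold of 0.05 (0%), while 25 had an unadjusted p under 0.05, and the groups did not overlap in 31 of 101 (30.7%). The hairpins with a smaller p than Mir145 were Mir340-1, Mir193b, Mir130b and Mir133a1, named after their values were seen, at changes of 2.11, -2.47, -2.27 and -1.76. Without control replicate 1 the change of Mir145 was 2.73 with an adjusted p of 0.0366 in the same limma fit, and with any other library left out the adjusted p ran from 0.0909 to 0.186.

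**Figure D4:**
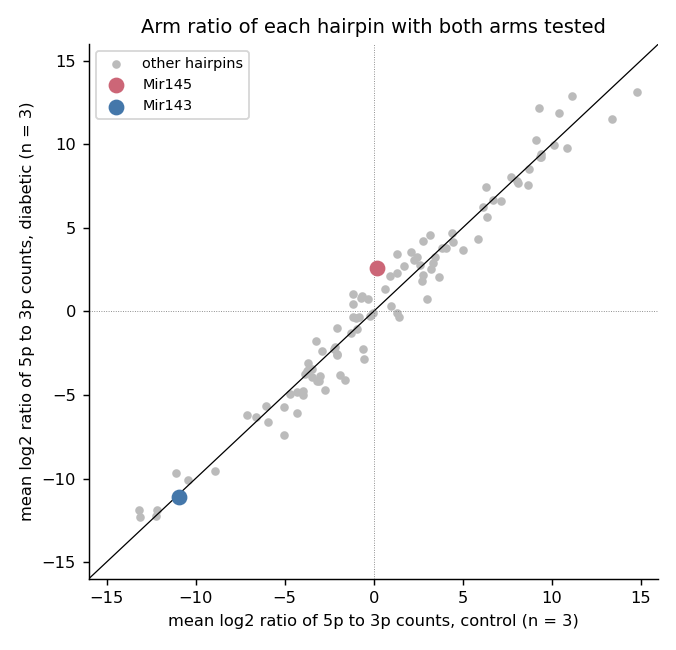
Mean log2 ratio of 5p to 3p counts in control (x axis) and diabetic libraries (y axis) for the 101 hairpins with both arms tested (n = 3 per group); the line marks equal ratios. Mir145 lies above the line, at 0.20 in control and 2.59 in diabetic libraries, and Mir143 lies close to it at -10.9 and -11.1.

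miRNAs with the most similar profile over the 6 libraries were found by the root mean square distance between log2 levels, each centred on its own mean, so that the libraries and their scaling are shared by all values. Nearest to miR-143-3p were miR-146a-5p, which is induced by inflammatory signals, miR-542-3p and miR-126a-5p, an arm of the main endothelial hairpin, at distances of 0.12, 0.19 and 0.20. miR-143-5p came next, at rank 4 of 361 with 0.22, and miR-145-5p stood at rank 47 with 0.46. Nearest to miR-145-5p were miR-140-5p, a cartilage miRNA, miR-152-5p and miR-100-5p, at 0.25, 0.31 and 0.37, and miR-143-3p was at rank 11. miR-100-5p rose in diabetic vesicles in the edgeR QL test (log2 fold change 1.88, adjusted p = 0.0418). Nearest to miR-145-3p were miR-483-5p, miR-187-3p and miR-24-1-5p, at 0.17, 0.18 and 0.19. Its own guide miR-145-5p stood at rank 334 of 361 in that order, with a distance of 1.35.

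Other miRNAs that act on the smooth muscle phenotype lay on both sides of 0. Of 20 listed, 17 were tested, 8 tied to the contractile state and 9 to the proliferative, synthetic state, and the rarest 3, miR-222-5p, miR-31a-3p and miR-146a-3p, had 22 to 25 counts over all libraries. Some also stand in marker lists given below. These were miR-1-3p, miR-133a-3p and miR-206-3p for striated muscle, and miR-221-3p and miR-222-3p for endothelium. None of the 17 passed the edgeR QL test over all miRNAs, where 1.66% did. The unadjusted p was under 0.05 for 1, miR-146a-5p, and DESeq2, edgeR's exact test and limma-voom called 0. Of the 17, 8 lay above 0, or 14 with library size only, and their median log2 fold change was -0.09, against 0.02 over all tested miRNAs. With library size only, the medians were 0.40 for the contractile and 0.72 for the synthetic miRNAs, against 0.61 over all tested miRNAs. The highest values were 1.28 (SE 0.59) for miR-23b-3p and 1.02 (SE 0.56) for miR-133b-3p, a striated muscle miRNA. The lowest was -1.05 (SE 0.74, or -0.32 without control replicate 3) for miR-133a-5p. Next came miR-21-3p, the passenger of miR-21, at -1.03 (SE 0.81, or -0.38 without control replicate 3 and -2.11 without diabetic replicate 3). Both were rare, with 83 counts of miR-133a-5p and 66 of miR-21-3p over all libraries.

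Among the synthetic miRNAs, miR-21-5p, which is raised in injured vessels, stood at 0.49 (SE 0.33), and miR-221-3p and miR-222-3p, which promote smooth muscle proliferation, at 0.74 (SE 0.40) and -0.54 (SE 0.33). The last became 0.01 with library size only, so that its direction depended on scaling. Without control replicate 1, 3 of the list were called, miR-23b-3p at 2.44, miR-221-3p at 1.19 and miR-26a-5p at 1.14, beside 13% of all miRNAs tested there. With library size only, 1 was called, miR-146a-5p at 1.44 (adjusted p = 0.0337 in the edgeR QL test), beside 13.5% of all tested miRNAs.

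Markers of other cell types that release vesicles into blood were present in both groups, with fold changes on both sides of 0. None of their tested members passed the edgeR QL test with TMM and all libraries. The 5 erythrocyte miRNAs summed to 87554 to 187254 normalized CPM in control and 40300 to 73040 in diabetic libraries, without overlap. Of these, 3 of the 5 lay below 0, or 2 with library size only, and miR-451-5p stood at -1.33 (SE 0.40). Most of each sum was miR-486, whose group means were 114853 and 56804 normalized CPM, controls first. The rarer members were mixed: miR-144-3p stood at -0.22 (SE 0.41), miR-363-3p at 0.22 (SE 0.50) and miR-144-5p at 0.52 (SE 0.36). For miR-144-5p every diabetic library lay above all controls. The 4 liver miRNAs summed to 39267 to 299721 in control and 45369 to 75608 in diabetic libraries, with all 4 below 0 under each of 5 scalings. miR-122-5p stood at -1.15 (SE 0.68), or 0.27 without control replicate 3, which set the upper end of that range. Before TMM scaling the erythrocyte sums overlapped, at 70241 to 183083 CPM in control and 51208 to 88443 CPM in diabetic libraries, and miR-486 moved from -1.02 to -0.57 without control replicate 2. The liver sums overlapped on both scales.

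Among markers on the higher side, the 4 endothelial miRNAs summed to 4444 to 5412 normalized CPM in control and 6818 to 10349 in diabetic libraries, without overlap, with 3 of 4 above 0, or 4 with library size only, and miR-126a-3p at 0.78 (SE 0.33). The 5 platelet miRNAs summed to 20978 to 25817 and 21490 to 27369 in the same order of groups, with 3 of 5 above 0, or 5 with library size only, and miR-223-3p stood at 1.06 (SE 0.57), or 2.14 without control replicate 1. The 5 leukocyte miRNAs summed to 3632 to 8888 and 6739 to 8096, with 4 of 5 above 0 and miR-142-3p at 0.22 (SE 0.41), or -0.02 with upper quartile factors. The ranges of platelet and leukocyte miRNAs thus overlapped between the groups after TMM scaling. In CPM before it they did not, and the diabetic libraries were higher. The platelet members above 0 were miR-223-3p, miR-126a-3p and miR-126a-5p, and both arms of miR-126a also stand in the endothelial list. The remaining platelet members, miR-191a-5p and miR-425-5p, lay below 0, at -0.20 (SE 0.35) and -0.21 (SE 0.33). Their values became 0.35 and 0.37 with library size only.

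Fibroblasts share the cluster with smooth muscle, and their 4 marker miRNAs summed to 165 to 384 normalized CPM in control and 181 to 900 in diabetic libraries. miR-199a-3p stood at 1.23 (SE 0.59), or 0.52 without diabetic replicate 1, and miR-199a-5p at 1.87 (SE 0.59), or 1.31 without it. miR-214-3p lay at -0.37 (SE 0.48), or 0.18 with library size only and -0.98 without diabetic replicate 1. miR-214-5p had no count in any library, which allows up to 0.336 to 0.48 CPM in a single library for counting error. The 6 striated muscle miRNAs summed to 1185 to 15158 and 2674 to 12881, with 2 of the 4 tested above 0, or 4 with library size only, and miR-1-3p at -0.09 (SE 0.82; 1.10 without control replicate 3). An unadjusted p under 0.05 was found for 2 each of the erythrocyte, liver, endothelial and platelet miRNAs, 1 fibroblast miRNA and 0 of the leukocyte and striated muscle miRNAs, against 22.7% of all tested miRNAs. The endothelial and platelet pair was the same, miR-126a-3p and miR-126a-5p, which stand in both lists. DESeq2 called 1 each of the erythrocyte, liver and fibroblast miRNAs and miR-126a-5p of the endothelial and platelet lists (11.6% of all tested), edgeR's exact test 1 each of the erythrocyte, liver and fibroblast miRNAs (8.29%), and limma-voom 0 (1.1%). With library size only, the edgeR QL test called miR-126a-3p, miR-126a-5p, miR-199a-5p and miR-499-5p (13.5% of all tested). Without control replicate 1 it called miR-223-3p, miR-150-5p and the endothelial miR-221-3p, higher, and miR-122-3p and miR-192-5p, lower (13%), and without diabetic replicate 3 miR-126a-5p and miR-199a-5p (5.8%). The part of these cell types in the levels of the cluster was not tested.

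**Figure D5:**
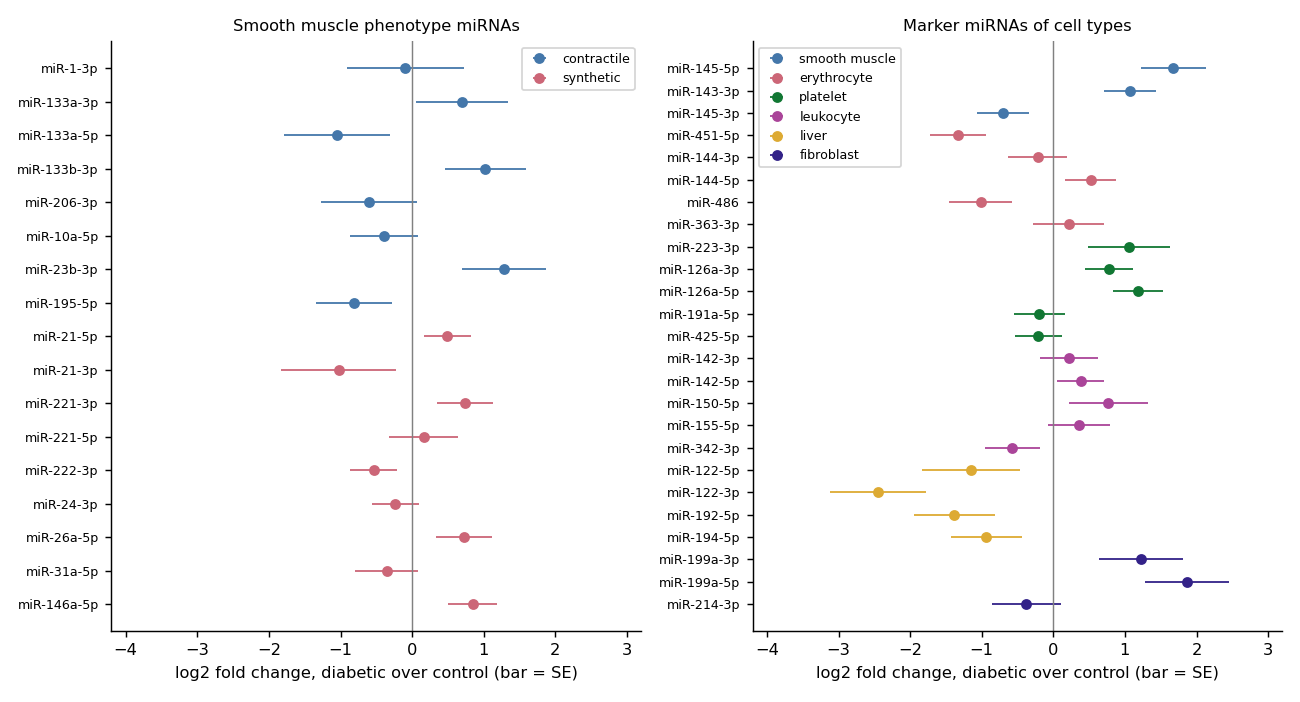
Log2 fold change, diabetic over control, with its SE (the edgeR QL fit with TMM, n = 3 per group) for tested miRNAs of the smooth muscle phenotype (left) and for cell type markers (right). The right panel shows smooth muscle, erythrocyte, platelet, leukocyte, liver and fibroblast markers, and leaves out those of endothelium and striated muscle. miR-145-5p at 1.68 and miR-143-3p at 1.07 lie to the right of 0, miR-145-3p at -0.71 to the left, and the 4 liver miRNAs all to the left.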

How the data were processed

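The authors deposited whole-number counts per mature miRNA, in 2 tables identical in all 4584 cells. One table adds CPM by the authors, their log2 fold change of mean CPM, and p-values with false discovery rates; its file name points to edgeR and the series design to DEGseq. Per the submitters' processing notes the genome was rn6; alignment, counting and annotation release are not given in the sources used here.

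Counts were tested with edgeR 4.0.16 in R 4.3.3: filterByExpr (minimum count 10, total 15) kept 362 miRNAs with 99.993% of counts, then TMM, glmQLFit and glmQLFTest, two-sided, with Benjamini-Hochberg adjustment. An SE is the log2 fold change over the square root of F. Arm ratios over hairpins (0.5 added to counts) used limma 3.58.1, and DESeq2 1.42.0 was an alternative. Code was tested on simulated data less noisy than these libraries, which checks the code and not the power to find changes here. Ligation of adaptors depends on sequence, so a ratio of 2 miRNAs is comparable between libraries, not a ratio of molecules. The binomial intervals of arm shares cover counting error only. The intervals of log2 fold changes come from the SE of the QL fit, which also takes in the spread between libraries.

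The members and lists were chosen with earlier results of these data known. Named miRNAs were the members, miR-143-5p, the 3 nearest profiles of each member, the 2 highest and 2 lowest and any called of the phenotype list, and the first markers of each list; other names, such as miR-21-5p, miR-221-3p, miR-222-3p, miR-26a-5p, miR-199a-5p and miR-214-3p, were chosen after their values were seen.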

Additional observations from a re-analysis of the deposited data

How the results depend on the processing

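Direction was kept by miR-143-3p, miR-145-5p and miR-145-3p under each of 15 alternatives to their log2 fold changes. Adjusted p under 0.05 was reached by miR-143-3p with library size only (1.67) and DESeq2 (1.05), and by miR-145-5p with library size only (2.29), DESeq2 (1.65) and edgeR's exact test (1.68), beside both guides without control replicate 1 and miR-145-5p without diabetic replicate 3. The causes were not tested. With 1 library left out, log2 fold changes ran from 0.91 to 1.30 for miR-143-3p, from 1.21 to 2.03 for miR-145-5p and from -1.01 to -0.55 for miR-145-3p. All miRNAs called numbered 6, against 49 with library size only, 2 with upper quartile factors, 42 with DESeq2, 30 with the exact test and 0 to 49 with 1 library left out. Smooth muscle phenotype miRNAs called numbered 1 with library size only and 0 to 3 with 1 library left out.

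Replicate numbers are shared by the groups with no stated link, so same-numbered libraries were not treated as pairs. Deviations of same-numbered libraries correlated at 0.252, 0.0232 and 0.256 for replicates 1, 2 and 3. Those of differently numbered libraries correlated at -0.403 to 0.0838, so replicates 1 and 3 stood above all of these. Replicate 2 did not, as control replicate 2 correlated more with diabetic replicate 1 (0.0838). Whether the numbers mark pairs cannot be told from the labels. With a replicate block 57 miRNAs were called and miR-145-5p stood at 1.64 (edgeR QL test, adjusted p = 0.00113), while miR-143-3p (1.07) and miR-145-3p (-0.75) were not called. The block also called 1 or 2 miRNAs in each marker list but that of striated muscle, where each list had 3 to 5 tested. It called 1 of the 17 tested phenotype miRNAs, beside 57 of all 362 tested miRNAs. In the exact sign-flip test of numbered pairs, the smallest possible p is 0.25, given by the ratios of miR-145 arms and of guides.

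The log2 arm ratio of miR-145 changed by 1.86 to 2.73 with 1 library left out and by 2.38 with a pseudocount of 1 or 5, and by 2.73 without control replicate 1 in limma, where it passed. The share of miR-145-3p in miRNA counts, which differed by -0.0009 percentage points (-0.00314 without diabetic replicate 2), reversed to 0.0000845 without diabetic replicate 1 and 0.000353 without diabetic replicate 3.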
